A study of Mus musculus with 24 samples.

Results

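The interaction between TBK1 and IKKe was measured by RNA-seq in mouse bone marrow-derived macrophages treated for 8 h with R837, in 12 libraries out of 24 in the series. They form 4 groups of 3: TBK1-WT ∆control, TBK1-WT ∆IKKe (IKKe knockout), TBK1-cKD ∆control (TBK1 conditional knockout, as the series record calls it) and TBK1-cKD ∆IKKe (both). The other 12 libraries are the same 4 genotypes untreated. The members were chosen by treatment, taken from the sample titles, and the interaction is the log2 change from TBK1-WT to TBK1-cKD in ∆IKKe cells minus the same change in ∆control cells. All groups were cultured from bone marrow with M-CSF, with 3 individual mice per group as replicates. Every record carries a protocol that speaks of wild-type C57BL/6N animals, and the sources used here give neither the altered alleles and exons nor what drives the conditional knockout. Since the libraries of a group are separate mice, p-values measure the spread between these samples.

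R837 (imiquimod) activates Toll-like receptor 7 (TLR7), an endosomal receptor for single-stranded RNA. TLR7 signals through MyD88, IRAK kinases and TRAF6 to the canonical IKK complex and NF-kB, to MAP kinases, and to interferon regulatory factors. TBK1 and IKKe (gene Ikbke) are closely related kinases of the IKK family, best known for phosphorylating IRF3 downstream of nucleic acid sensors and TRIF. They also restrain inflammatory signalling, through other IKK family members and RIPK1, and each can take over part of the other's work. On the log2 scale an interaction of 0 means that the fold changes of losing each kinase multiply. A positive interaction means that expression without both exceeded that product, and a negative one that it fell below it.

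The R837 libraries held between 19727746 and 41323219 counts. Malat1 and Neat1, RNAs retained in the nucleus, were at 409 and 598 CPM (counts scaled to a common library total) in TBK1-WT ∆control replicate 1 and at 361 and 756 in replicate 3 labelled TBK1-cKD ∆IKKe, against 36.0 to 50.3 and 22.9 to 37.1 in the other 10. These 2 libraries also had 11.3% and 10.8% of their reads outside gene counts, against 8.41% to 8.93%, by the library total that the authors' RPKM values imply. All 12 untreated libraries were of the high kind. Each comparison within the R837 libraries was therefore fitted on all 12 of them and again on the 10 of low Malat1 and Neat1. TBK1-cKD ∆control replicate 2 was the shallowest library, with 14226 genes detected against 17519 to 19218. After library scaling by TMM (trimmed mean of M values), the macrophage markers Csf1r (2769 to 3717 CPM), Adgre1 (4308 to 7377), Cd68 (881 to 1363) and Lyz2 (8815 to 15085) were high in every R837 library. Adgre1 was lower in the libraries labelled TBK1-cKD ∆IKKe, at 4308 to 5028 CPM against 6345 to 7377 in the rest. Csf1r was lower there too, at 2769 to 3108 CPM against 3228 to 3717, while Cd68 and Lyz2 overlapped between groups. The Adgre1 interaction was -0.33 ± 0.11 (SE), and -0.24 over 10 libraries.

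The targeted genes followed the label of the double-deficient group only in part. From here on CPM carry that scaling, save for the sums of marker lists, and replicates are given in the order 1, 2, 3. Ikbke (chr1:131254343-131279606, minus strand in GRCm38) stood at 369, 200 and 208 CPM in TBK1-WT ∆control, 68.7, 63.2 and 70.7 in TBK1-WT ∆IKKe, 214, 218 and 221 in TBK1-cKD ∆control and 69.2, 73.1 and 232 in the labelled TBK1-cKD ∆IKKe libraries. It was therefore about as low as in TBK1-WT ∆IKKe in replicates 1 and 2 of the labelled double group, and at the level of IKKe-sufficient cells in replicate 3, one of the 2 libraries of high Malat1 and Neat1. Tbk1 (chr10:121546455-121586787, minus strand) stood at 135, 108 and 110 CPM in TBK1-WT ∆control, 106, 112 and 103 in TBK1-WT ∆IKKe, 92.2, 85.4 and 95.8 in TBK1-cKD ∆control and 103, 103 and 121 in the labelled TBK1-cKD ∆IKKe libraries. Tbk1 RNA was lowest in TBK1-cKD ∆control, where no library overlapped another group, while the labelled double group overlapped TBK1-WT ∆IKKe. Their interactions were 1.14 ± 0.56 (SE, adjusted p = 0.232, -0.01 over 10 libraries) for Ikbke and 0.39 ± 0.14 (SE, adjusted p = 0.124, 0.20 over 10 libraries) for Tbk1. Exon counts cannot show a deleted exon or lost protein, so these levels neither establish nor refute the genotype, and "the libraries labelled TBK1-cKD ∆IKKe" is the wording kept throughout. "Loss" of a kinase below means the labelled contrast.

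**Figure D1:**
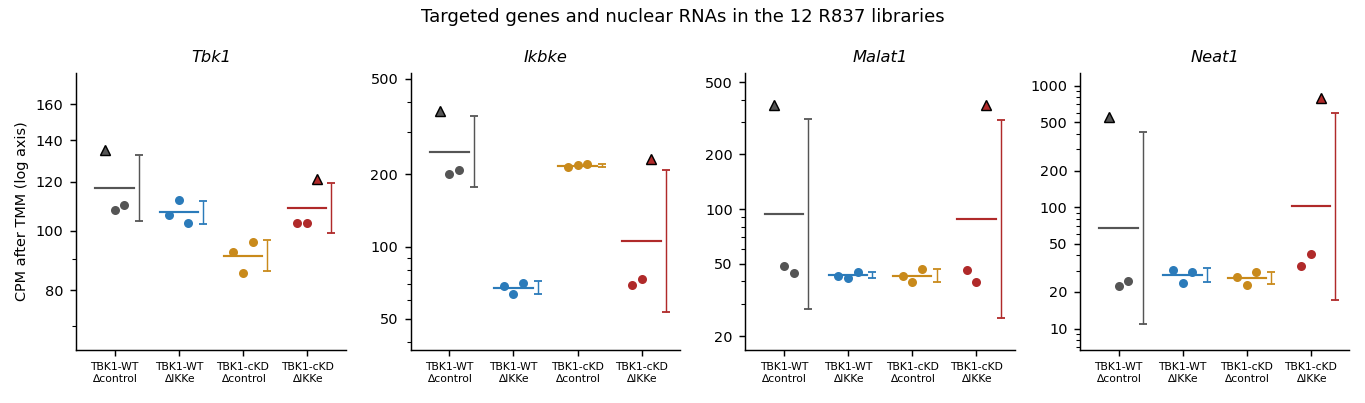
Tbk1, Ikbke, Malat1 and Neat1 in each of the 12 R837 libraries, in TMM-scaled CPM on a log axis; the line is the mean and the bar ± 1 SD of the 3 log2 values. Triangles mark the 2 libraries of high Malat1 and Neat1; the triangle labelled TBK1-cKD ∆IKKe has Ikbke at 232 CPM, beside circles at 69.2 and 73.1.

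Genes that exceeded the product of the single losses after R837 included 44 interferon-stimulated genes, 19 inflammatory cytokine and chemokine genes and 14 antimicrobial effectors, and 6 cell cycle genes were among those that fell below it. Of 13483 genes tested, 982 (7.28%) had an interaction at adjusted p under 0.05 over 12 libraries, 616 positive (4.57%) and 366 negative (2.71%). Over 10 libraries 1659 of 13489 genes were called (12.3%), 1039 positive (7.7%) and 620 negative (4.6%). Of the genes tested in both fits, 912 (6.81%) were called with the same sign in each, 580 positive (4.33%) and 332 negative (2.48%), and all results below rest on those unless stated. The 4.33% and 2.48% are the shares to set beside the counts of each gene list called in both fits. The sign was the same for all 912 under each alternative in which a gene was called, and 483 of them were called in every fit that left out 1 of the 12 libraries. The total over 12 libraries fell to 581, 521 and 561 without TBK1-WT ∆IKKe replicate 1, 2 and 3, and to 623 without TBK1-cKD ∆control replicate 1. Positive calls then numbered 391, 354 and 377 without those TBK1-WT ∆IKKe replicates. Negative calls numbered 190, 167 and 184 without them, 212 without TBK1-cKD ∆control replicate 1 and 218 without TBK1-WT ∆control replicate 3.

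The genes called stood apart in the libraries labelled as lacking both kinases. Among the 580 positive genes, 574 had their highest mean in the libraries labelled TBK1-cKD ∆IKKe, and in 549 all 3 of those libraries lay above all other 9 R837 libraries. Over all genes tested, 1570 (11.6%) had that arrangement. Among the 332 negative genes, 328 had their lowest mean there, and in 310 all 3 libraries lay below the other 9, against 1335 (9.9%) of all genes. Both sets were chosen by an interaction called on these same libraries. The arrangement is therefore in part fixed by that choice and is given as a description. For 493 of the 580 positive genes TBK1 loss was not called where IKKe was present and was called higher where IKKe was lost; 54 were higher in both settings. Likewise 281 of the 332 negative genes were not called for TBK1 loss with IKKe present and were lower without it, and 25 were lower in both. With the calls of the 10-library fit these counts were 434 and 104 for the positive genes and 241 and 58 for the negative ones. The change was at least 2-fold for 255 of the 580 positive and 70 of the 332 negative genes.

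Fewer genes were called for either kinase alone after R837. Loss of TBK1 with IKKe present raised 188 genes (1.39%) and lowered 162 (1.2%), and loss of IKKe with TBK1 present raised 76 (0.564%) and lowered 17 (0.126%). With the other kinase already lost, TBK1 loss raised 1517 (11.3%) and lowered 1252 (9.29%), and IKKe loss raised 1607 (11.9%) and lowered 1468 (10.9%). The libraries labelled as lacking both differed from TBK1-WT ∆control in 1696 genes higher (12.6%) and 1590 lower (11.8%). Over 10 libraries the same 5 comparisons called 476 higher and 394 lower (3.53% and 2.92%), 183 and 75 (1.36% and 0.556%), 2213 and 1662 (16.4% and 12.3%), 2269 and 1905 (16.8% and 14.1%), and 2327 and 1891 (17.3% and 14.0%), in that order. The 2 small totals depended on single libraries. That of TBK1 loss with IKKe present (350) was 233 without TBK1-WT ∆IKKe replicate 1, 201 and 210 without TBK1-cKD ∆control replicates 1 and 3, and 199 and 153 without TBK1-WT ∆control replicates 2 and 3. That of IKKe loss with TBK1 present (93) was 14, 23 and 44 without TBK1-WT ∆IKKe replicates 1, 2 and 3, and 35 and 16 without TBK1-WT ∆control replicates 2 and 3. These comparisons share libraries with the interaction and are given beside it as a description.

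**Figure D2:**
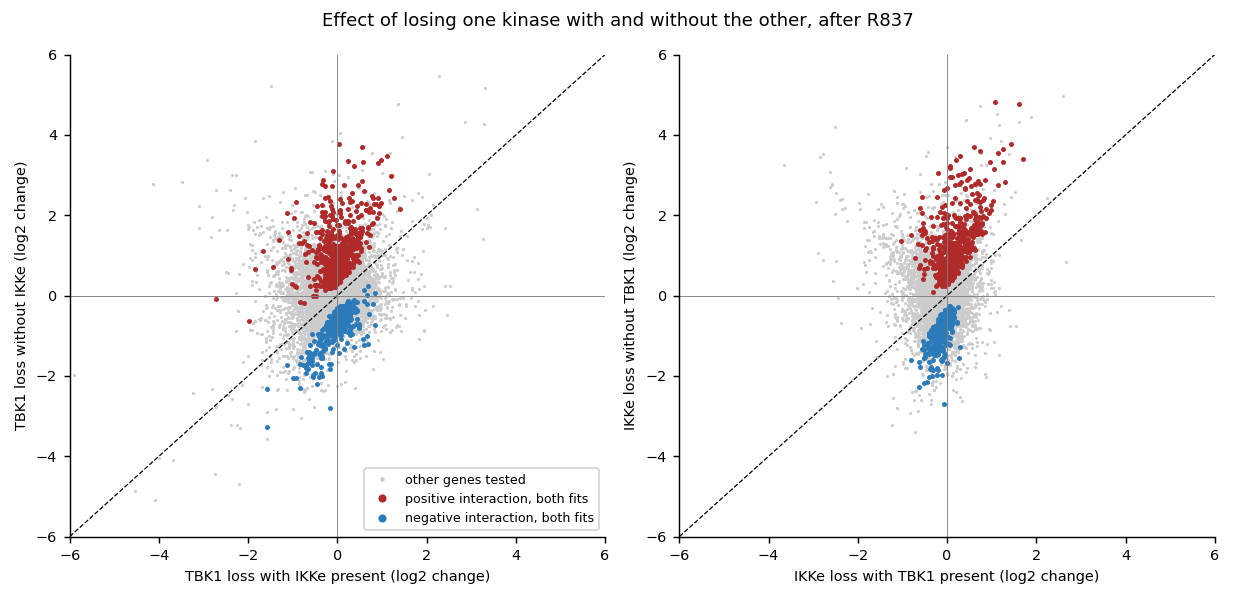
Log2 change on losing 1 kinase with the other present (x axis) and with the other lost (y axis), for TBK1 loss on the left and IKKe loss on the right; each point is a gene of the 12-library fit, red and blue marking the 580 positive and 332 negative genes, and the dashed line equal changes. Coloured points spread along the y axis more than along the x axis; 3 genes lie outside the limits of ± 6.

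Among the genes with the largest positive interactions were several for secreted and surface proteins. Slamf1 (chr1:171767127-171801184, plus strand), a receptor of the signalling lymphocytic activation molecule family, had the largest positive interaction of the genes called in both fits with a mean of at least 1 on the log2 CPM scale. Slamf1 stood at 0.935, 1.31 and 1.18 CPM in TBK1-WT ∆control, 2.79, 1.87 and 2.47 in TBK1-WT ∆IKKe, 1.18, 1.32 and 1.01 in TBK1-cKD ∆control and 35.4, 31.5 and 31.7 in the labelled TBK1-cKD ∆IKKe libraries. The Slamf1 interaction was 3.74 ± 0.25 (SE, adjusted p = 3.34e-05, 3.92 over 10 libraries), a 13.4-fold excess over the product of the 2 single changes. Inhba, the subunit of activin A, stood at 7.79, 4.5 and 4.31 CPM with both kinases present, 8.61, 7.58 and 9.22 without IKKe, 7.27, 5.02 and 7.3 without TBK1 and 72.7, 83.7 and 102 in the libraries labelled as lacking both. For Inhba the interaction was 3.11 ± 0.32 (SE, adjusted p = 0.000272, 2.62 over 10 libraries). Neither gene's labelled double libraries overlapped the other 9, which lay within a few CPM of each other. Cfb, complement factor B, had an interaction of 3.18 ± 0.43 (SE, adjusted p = 0.00112, 2.68 over 10 libraries), and Slpi, a secreted inhibitor of leukocyte proteases, one of 2.75 ± 0.43 (SE, adjusted p = 0.00292, 2.29 over 10 libraries).

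**Figure D3:**
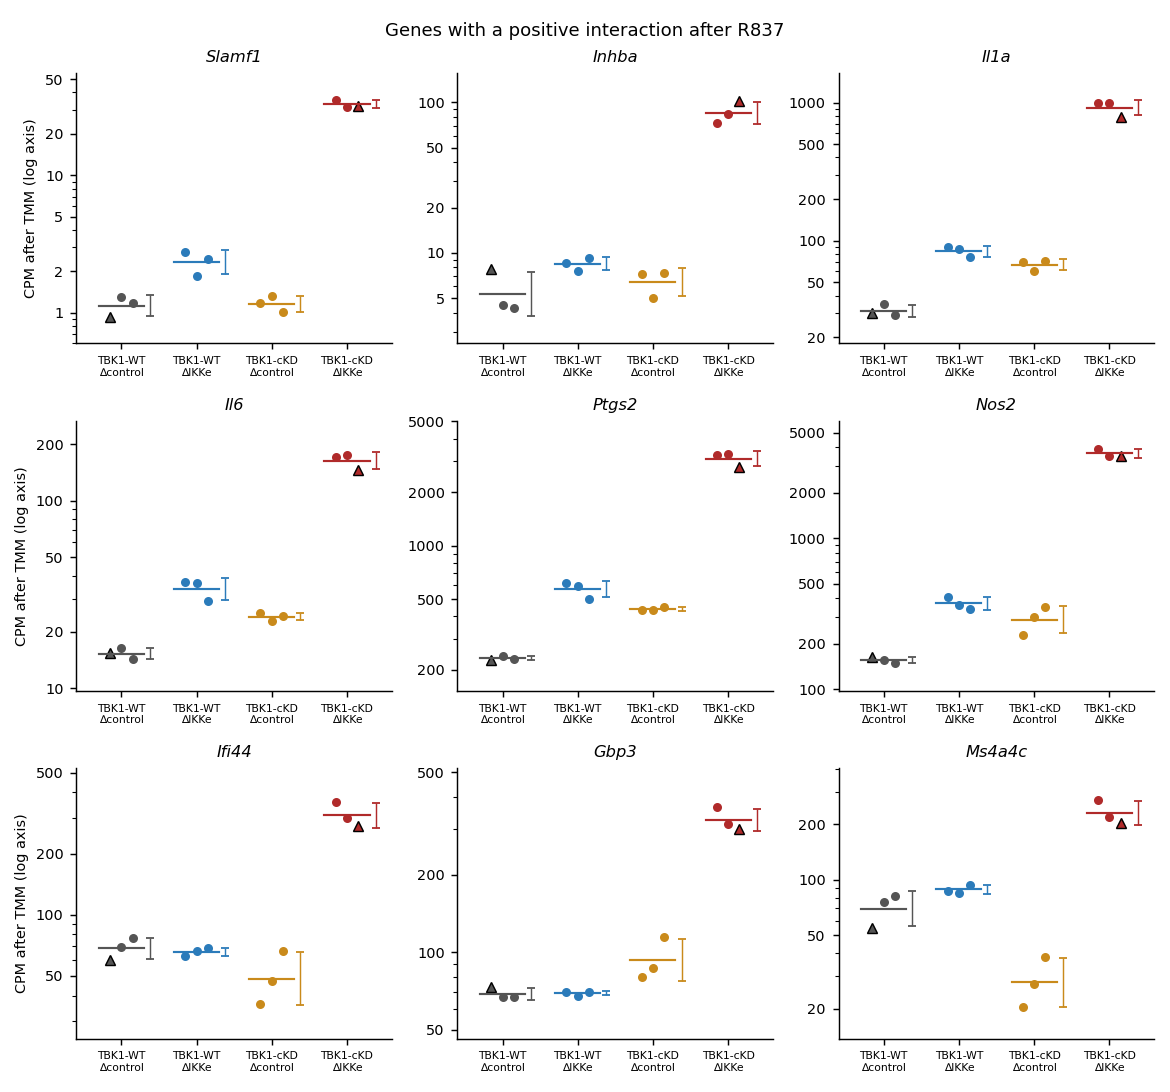
TMM-scaled CPM (log axis) of 9 genes with a positive interaction in each R837 library; the line is the mean and the bar ± 1 SD of the 3 log2 values, and triangles are the 2 libraries of high Malat1 and Neat1. In each panel the 3 points labelled TBK1-cKD ∆IKKe lie above the other 9, from 31.5 to 35.4 CPM for Slamf1 against 0.935 to 2.79.

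Inflammatory cytokines and chemokines were called in 1 direction. Of 37 tested, 19 were called positive in both fits and none negative, with a median interaction of 1.11 (0.96 over 10 libraries) against 0.03 (0.00) over all genes tested. Without IKKe, TBK1 loss raised 30 of the 37 and lowered none, and with IKKe present it raised 11 and lowered 1. Over all genes tested it raised 11.3% and lowered 9.29% without IKKe, and 1.39% and 1.2% with IKKe present. Il1a, the alarmin interleukin-1 alpha, stood at 29.7, 34.9 and 28.9 CPM with both kinases present, 89.2, 86.4 and 75.7 without IKKe, 70, 60.7 and 71.2 without TBK1 and 990, 991 and 792 in the libraries labelled as lacking both. Either single loss raised Il1a, TBK1 by 1.11 ± 0.11 (SE, adjusted p = 0.000609, 1.08 over 10 libraries) and IKKe by 1.42 ± 0.11 (SE, adjusted p = 0.0004, 1.39 over 10 libraries), so that no group overlapped TBK1-WT ∆control. The Il1a interaction was 2.35 ± 0.16 (SE, adjusted p = 3.34e-05, 2.49 over 10 libraries).

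Il6, the interleukin-6 cytokine that NF-kB drives in macrophages, stood at 15.4, 16.4 and 14.3 CPM with both kinases present, 36.8, 36.3 and 29.1 without IKKe, 25.3, 23 and 24.3 without TBK1 and 171, 176 and 146 in the libraries labelled as lacking both. The Il6 interaction was 1.62 ± 0.15 (SE, adjusted p = 0.000154, 1.70 over 10 libraries). Ptgs2, cyclooxygenase 2 of prostaglandin synthesis, stood at 228, 240 and 230 CPM with both kinases present, 617, 595 and 504 without IKKe, 437, 432 and 451 without TBK1 and 3224, 3289 and 2776 in the libraries labelled as lacking both. The Ptgs2 interaction was 1.52 ± 0.13 (SE, adjusted p = 7.22e-05, 1.61 over 10 libraries). Each single loss was also called, at 0.92 ± 0.09 (SE, adjusted p = 0.000454, 0.91 over 10 libraries) for TBK1 and 1.30 ± 0.09 (SE, adjusted p = 0.000161, 1.29 over 10 libraries) for IKKe. Cxcl3, a neutrophil-attracting chemokine, stood at 44, 43 and 35.8 CPM with both kinases present, 66.8, 57.9 and 50.6 without IKKe, 72.9, 62.8 and 68.2 without TBK1 and 266, 295 and 240 in the libraries labelled as lacking both. Cxcl3 interacted by 1.46 ± 0.17 (SE, adjusted p = 0.000511, 1.48 over 10 libraries), the largest of its 9 other libraries being 72.9 CPM. Cxcl9, the interferon-gamma-inducible T cell chemokine of the interferon-stimulated list, interacted by 2.89 ± 0.46 (SE, adjusted p = 0.00301, 2.36 over 10 libraries) from low levels of 2.2 to 8.35 CPM outside the labelled double group.

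Tnf, Ccl2 and Cxcl10 had no call, and these 3 genes, with Il10 and Ifitm1 further on, were named after their values had been seen. Tnf stood at 168, 142 and 144 CPM with both kinases present, 179, 163 and 171 without IKKe, 206, 207 and 196 without TBK1 and 229, 239 and 264 in the libraries labelled as lacking both, with an interaction of 0.09 ± 0.11 (SE, adjusted p = 0.63, -0.05 over 10 libraries). Its highest values were in the labelled double group and its groups with and without IKKe overlapped where TBK1 was present. Ccl2, the monocyte chemokine, had an interaction of -0.30 ± 0.20 (SE, adjusted p = 0.344, -0.09 over 10 libraries). Cxcl10, a chemokine induced by interferon and NF-kB, stood at 71.8, 67.2 and 85.2 CPM with both kinases present, 57.9, 59.2 and 74.6 without IKKe, 123, 174 and 196 without TBK1 and 89.2, 60.4 and 52.3 in the libraries labelled as lacking both. Its highest values were in TBK1-cKD ∆control and not in the labelled double group, and the interaction of -1.06 ± 0.30 (SE, adjusted p = 0.0539, -0.88 over 10 libraries) missed the threshold, as it did over 10 libraries. Il10, the anti-inflammatory cytokine, stood at 17.1, 17.3 and 18 CPM with both kinases present, 18.1, 17.8 and 19.3 without IKKe, 9.71, 12.7 and 11.1 without TBK1 and 28.9, 23.5 and 23.6 in the libraries labelled as lacking both. TBK1 loss changed Il10 by -0.65 ± 0.11 (SE, adjusted p = 0.0113, -0.67 over 10 libraries) with IKKe present and by 0.46 ± 0.11 (SE, adjusted p = 0.0125, 0.51 over 10 libraries) without. The interaction was 1.11 ± 0.16 (SE, adjusted p = 0.00172, 1.18 over 10 libraries).

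Promoter sequence upstream of 2 of the called cytokine genes is printed because both windows hold a match to the NF-kB (kappa B) core, GGGA and TTCC separated by 2 bases of any kind, searched on both strands. The windows are the 150 bases before the RefSeq start in GRCm38.p6, 5′ to 3′ on the gene's strand, with matches in capitals. In Cxcl3 (chr5:90785951-90786100, plus strand) 2 overlapping matches, on opposite strands, start at positions -73 and -72 from the gene start, and in Il6 (chr5:30012964-30013113, plus strand) 1 starts at -44.
Cxcl3: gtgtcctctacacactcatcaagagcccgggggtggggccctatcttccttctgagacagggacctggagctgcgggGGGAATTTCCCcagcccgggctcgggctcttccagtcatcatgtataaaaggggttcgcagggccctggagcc
Il6: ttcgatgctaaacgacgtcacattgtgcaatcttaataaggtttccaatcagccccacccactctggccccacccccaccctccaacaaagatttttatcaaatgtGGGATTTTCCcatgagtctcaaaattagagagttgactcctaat
The kappa B core was in 4 of 14 RefSeq promoters (250 bases before to 50 after the start) of 13 called cytokine genes, 28.6%, against 1.47% of 32851 promoters of the table. It was in 3.16% of the promoters of positive and 0.915% of those of negative genes, against 1.58% of those of genes tested. A match describes letters and shows no binding. Promoters of uncalled cytokine genes were not counted apart, so the 28.6% does not relate the core to the calls.

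Antimicrobial and immunometabolic effectors were also called in 1 direction. Of 26 tested, 14 were called positive in both fits and none negative, at a median of 0.74 (0.81 over 10 libraries); the 12-library count was 9 without replicate 2 labelled TBK1-cKD ∆IKKe, without TBK1-WT ∆control replicate 3 and without TBK1-WT ∆IKKe replicate 3. Nos2, inducible nitric oxide synthase, stood at 163, 155 and 149 CPM with both kinases present, 410, 359 and 342 without IKKe, 230, 300 and 348 without TBK1 and 3917, 3495 and 3526 in the libraries labelled as lacking both. Single losses raised Nos2 by 0.91 ± 0.13 (SE, adjusted p = 0.0039, 0.95 over 10 libraries) for TBK1 and 1.25 ± 0.13 (SE, adjusted p = 0.00159, 1.29 over 10 libraries) for IKKe. The interaction was 2.39 ± 0.19 (SE, adjusted p = 5e-05, 2.38 over 10 libraries). Enzymes that use or make its substrate arginine were positive too. Arg2, the mitochondrial arginase, interacted by 2.67 ± 0.20 (SE, adjusted p = 5e-05, 2.81 over 10 libraries), and Ass1, which rebuilds arginine from citrulline, by 1.24 ± 0.15 (SE, adjusted p = 0.000555, 1.29 over 10 libraries). Hp, the haemoglobin scavenger haptoglobin, stood at 60.9, 73.7 and 65.3 CPM with both kinases present, 99.6, 88.8 and 82.3 without IKKe, 83.4, 78.7 and 74.6 without TBK1 and 365, 397 and 442 in the libraries labelled as lacking both. The 9 other libraries lay between 60.9 and 99.6 CPM, and the interaction of Hp was 1.91 ± 0.14 (SE, adjusted p = 5e-05, 1.90 over 10 libraries).

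Interferon-stimulated genes were the list with the most calls. Of 66 tested, 44 were called positive in both fits and none negative, at a median of 0.996 (1.06 over 10 libraries). The 12-library count fell to 28 and 27 without TBK1-WT ∆IKKe replicates 1 and 2. IKKe loss with TBK1 present called none of the 66 in either direction, TBK1 loss with IKKe present raised 4 and lowered 3, and TBK1 loss without IKKe raised 60. Over all genes tested, IKKe loss with TBK1 present raised 0.564% and lowered 0.126%, so a count of none is near that share. TBK1 loss raised 1.39% and lowered 1.2% of all genes with IKKe present, and raised 11.3% without it. Ifi44 stood at 60.2, 69.7 and 76.5 CPM with both kinases present, 62.7, 66.3 and 68.6 without IKKe, 36.5, 47 and 66.5 without TBK1 and 360, 298 and 272 in the libraries labelled as lacking both. For Ifi44 the first 3 groups overlapped, and the interaction was 2.69 ± 0.26 (SE, adjusted p = 0.000231, 2.87 over 10 libraries).

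Gbp3, a guanylate-binding protein of cell-autonomous defence, stood at 73, 66.7 and 67 CPM with both kinases present, 70.2, 67.7 and 70 without IKKe, 80.3, 87.1 and 115 without TBK1 and 366, 316 and 301 in the libraries labelled as lacking both, an interaction of 1.79 ± 0.17 (SE, adjusted p = 0.000204, 1.81 over 10 libraries). Isg20, an exonuclease that degrades viral RNA, stood at 14.4, 13.4 and 15.1 CPM with both kinases present, 12, 11.1 and 13.4 without IKKe, 7.77, 14.4 and 13.6 without TBK1 and 71.3, 57.7 and 66.1 in the libraries labelled as lacking both, an interaction of 2.69 ± 0.27 (SE, adjusted p = 0.000249, 2.69 over 10 libraries). Ifi205, of the Ifi200 family of DNA-sensing proteins, interacted by 2.29 ± 0.23 (SE, adjusted p = 0.000249, 2.45 over 10 libraries). Gbp4 interacted by 3.00 ± 0.48 (SE, adjusted p = 0.00325, 2.53 over 10 libraries) and Slfn1, of the Schlafen family, by 2.85 ± 0.34 (SE, adjusted p = 0.0006, 2.88 over 10 libraries). Guanylate-binding protein, Ifi200 and class I MHC genes have near-identical copies, so their counts may be shared between copies. Not every gene of the list had its highest level in the labelled double group. Rsad2 (viperin, named after its values had been seen) stood at 219, 220 and 271 CPM with both kinases present, 178, 180 and 226 without IKKe, 379, 456 and 577 without TBK1 and 345, 263 and 252 in the libraries labelled as lacking both. TBK1 loss alone raised Rsad2 by 0.99 ± 0.17 (SE, adjusted p = 0.0102, 0.94 over 10 libraries), and its interaction of -0.43 ± 0.24 (SE, adjusted p = 0.276, -0.29 over 10 libraries) was not called.

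A few genes were lower on TBK1 loss alone and higher on TBK1 loss once IKKe was lost. Ms4a4c, a membrane-spanning 4-domain family member, stood at 54.4, 76.1 and 81.8 CPM with both kinases present, 87, 85 and 93.9 without IKKe, 20.5, 27.3 and 38 without TBK1 and 272, 220 and 203 in the libraries labelled as lacking both. TBK1 loss changed Ms4a4c by -1.31 ± 0.21 (SE, adjusted p = 0.00813, -1.46 over 10 libraries) with IKKe present and by 1.39 ± 0.21 (SE, adjusted p = 0.000575, 1.48 over 10 libraries) without. Ifitm1, an antiviral membrane protein, stood at 11.5, 7.64 and 7.74 CPM with both kinases present, 14.9, 14 and 14.5 without IKKe, 3.12, 3.35 and 3.38 without TBK1 and 20.4, 21.1 and 29.9 in the libraries labelled as lacking both. Its changes on TBK1 loss with and without IKKe were -1.45 ± 0.19 (SE, adjusted p = 0.00253, -1.23 over 10 libraries) and 0.72 ± 0.18 (SE, adjusted p = 0.0125, 0.53 over 10 libraries). Both genes were lowest in TBK1-cKD ∆control, in each of its 3 libraries.

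Windows from Gbp3 (chr3:142559894-142560043, plus strand) and Bst2 (chr8:71537473-71537622, minus strand) are printed because each holds 2 overlapping matches to the interferon-stimulated response element core, GAAA repeated after 2 bases of any kind, in capitals, starting at -45 and -39 in Gbp3 (on the opposite strand) and at -130 and -124 in Bst2.
Gbp3: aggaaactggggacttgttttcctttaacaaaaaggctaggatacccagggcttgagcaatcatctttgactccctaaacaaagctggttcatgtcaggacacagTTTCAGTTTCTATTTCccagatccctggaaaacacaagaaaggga
Bst2: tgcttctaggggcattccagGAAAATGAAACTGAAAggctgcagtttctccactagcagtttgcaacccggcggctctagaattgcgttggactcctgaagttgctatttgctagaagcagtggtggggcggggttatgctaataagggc
The core was in 18 of 40 promoters (45%) of 32 called interferon-stimulated genes, against 3.44% of all promoters of the table and 3.33% of those of genes tested. It was in 8.44% of those of positive genes and 3.05% of those of negative genes. The AP-1 site TGANTCA was in 10.7% and 6.71% of the latter 2 sets, 7.81% of all and 5.4% of those of genes tested. The gamma-activated site TTCNNNGAA was in 7.91%, 4.88%, 8.3% and 6.88%, in that order. Promoters of uncalled interferon-stimulated genes were not counted apart, so the 45% does not relate the response element core to the calls.

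Some genes of antigen presentation had positive interactions. Of 22 genes of MHC class I presentation, 10 were called positive in both fits and none negative, at a median of 0.58 (0.71 over 10 libraries, with 17 positive calls and 1 negative). H2-Q4, a non-classical class I gene, stood at 53.4, 55.3 and 52.5 CPM with both kinases present, 56, 52.5 and 52.4 without IKKe, 48, 45.2 and 47.9 without TBK1 and 136, 129 and 145 in the libraries labelled as lacking both, an interaction of 1.54 ± 0.09 (SE, adjusted p = 3.34e-05, 1.50 over 10 libraries). H2-T23 (Qa-1) interacted by 1.18 ± 0.13 (SE, adjusted p = 0.000341, 1.22 over 10 libraries) and Tap2, a subunit of the peptide transporter, by 0.96 ± 0.15 (SE, adjusted p = 0.00265, 1.12 over 10 libraries). Of 16 genes of MHC class II and costimulation, 3 were called positive, at a median of 0.67 (0.80 over 10 libraries, with 8 calls); 5 were called without TBK1-WT ∆control replicate 1 and 6 without replicate 3 labelled TBK1-cKD ∆IKKe. Among them Cd274, the inhibitory ligand PD-L1, stood at 419, 302 and 299 CPM with both kinases present, 417, 385 and 380 without IKKe, 452, 412 and 456 without TBK1 and 1112, 1075 and 1352 in the libraries labelled as lacking both, with an interaction of 1.21 ± 0.19 (SE, adjusted p = 0.00242, 0.93 over 10 libraries). Cd86, a ligand of CD28, interacted by 1.01 ± 0.14 (SE, adjusted p = 0.00117, 1.11 over 10 libraries).

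**Figure D4:**
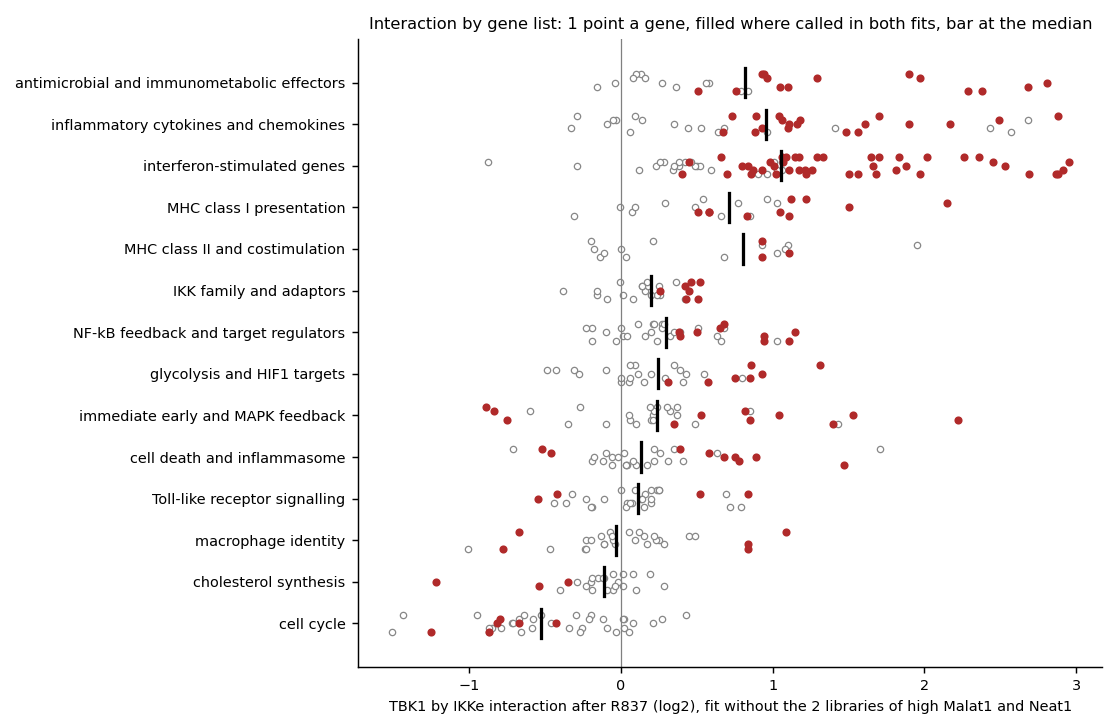
Interaction (log2, 10-library fit) of each tested gene in 14 gene lists; filled points were called in both fits with the same sign, and the bar is the list's median. Filled points of the upper 7 lists lie to the right of 0, with medians from 0.20 for IKK family and adaptors to 1.06 for interferon-stimulated genes, and those of the cell cycle list lie to the left, with a median of -0.53.

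Medians were smaller for genes of the kinases' own pathway. Of 25 IKK family members and adaptors, 7 were called positive and none negative, at a median of 0.32 (0.20 over 10 libraries, with 9 positive calls and 1 negative). The 12-library count was 3 without any 1 of TBK1-WT ∆IKKe replicates 1, 2 and 3, TBK1-cKD ∆control replicate 1 and replicates 1 and 2 labelled TBK1-cKD ∆IKKe, and 4 without TBK1-WT ∆control replicate 3. Nfkb2, the p100 precursor of the alternative pathway, stood at 252, 238 and 229 CPM with both kinases present, 284, 276 and 272 without IKKe, 268, 258 and 260 without TBK1 and 423, 429 and 402 in the libraries labelled as lacking both, an interaction of 0.47 ± 0.08 (SE, adjusted p = 0.00558, 0.46 over 10 libraries). Tbkbp1 (SINTBAD), a scaffold that binds TBK1 and IKKe, interacted by 0.52 ± 0.11 (SE, adjusted p = 0.0133, 0.45 over 10 libraries). Tank, another such scaffold, interacted by 0.47 ± 0.09 (SE, adjusted p = 0.00748, 0.43 over 10 libraries), and its adjusted p was 0.0511 with no count filter. These 3 interactions correspond to 1.38, 1.43 and 1.38-fold.

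NF-kB feedback and target regulators were called positive in 9 of 34 cases and negative in none, at a median of 0.30 in both fits, and 18 were called positive over 10 libraries. Tnfaip3, the deubiquitinase A20, stood at 165, 142 and 137 CPM with both kinases present, 221, 216 and 201 without IKKe, 206, 202 and 206 without TBK1 and 609, 590 and 668 in the libraries labelled as lacking both. The Tnfaip3 interaction was 1.08 ± 0.11 (SE, adjusted p = 0.000292, 0.94 over 10 libraries). TBK1 loss alone gave 0.47 ± 0.08 (SE, adjusted p = 0.0103, 0.56 over 10 libraries) and IKKe loss alone 0.52 ± 0.08 (SE, adjusted p = 0.0143, 0.61 over 10 libraries). Traf1, an adaptor of TNF receptors, interacted by 1.12 ± 0.10 (SE, adjusted p = 0.000152, 1.11 over 10 libraries) and Ier3 by 0.99 ± 0.10 (SE, adjusted p = 0.000255, 0.94 over 10 libraries). Of 30 genes of Toll-like receptor signalling, 2 were called positive and 2 negative (4.33% and 2.48% over all genes), at a median of -0.02 (0.11 over 10 libraries, with 5 positive and 4 negative calls). Of single libraries left out, those that did not lower the positive count to 1 were TBK1-cKD ∆control replicates 2 and 3 and replicate 3 labelled TBK1-cKD ∆IKKe. Those that did not lower the negative count to 1 were replicate 2 of both ∆control groups and replicates 1 and 2 labelled TBK1-cKD ∆IKKe. Irf5, a transcription factor activated downstream of TLR7, was among the negative ones at 308, 300 and 306 CPM with both kinases present, 260, 244 and 262 without IKKe, 279, 283 and 275 without TBK1 and 161, 160 and 166 in the libraries labelled as lacking both. All 3 labelled double libraries lay below the others, with an interaction of -0.52 ± 0.08 (SE, adjusted p = 0.00175, -0.55 over 10 libraries). Irf8, another factor of that family, went the other way at 0.72 ± 0.11 (SE, adjusted p = 0.00214, 0.84 over 10 libraries).

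Immediate early and MAPK feedback genes split. Of 31 tested, 8 were called positive and 3 negative, at a median of 0.26 (0.24 over 10 libraries). Positive calls numbered 4 without any 1 of TBK1-WT ∆IKKe replicates 1, 2 and 3, replicate 1 labelled TBK1-cKD ∆IKKe, TBK1-WT ∆control replicate 3 and TBK1-cKD ∆control replicate 3, and 5 without TBK1-WT ∆control replicate 2 or replicate 2 labelled TBK1-cKD ∆IKKe. Fosl2 (Fra-2) and Maff, both bZIP transcription factors, interacted by 0.81 ± 0.10 (SE, adjusted p = 0.000666, 0.82 over 10 libraries) and 1.04 ± 0.10 (SE, adjusted p = 0.000232, 1.04 over 10 libraries). Fos, an AP-1 subunit, had a negative interaction of -0.72 ± 0.09 (SE, adjusted p = 0.000934, -0.75 over 10 libraries), at 299, 291 and 280 CPM with both kinases present, 270, 262 and 255 without IKKe, 304, 276 and 263 without TBK1 and 149, 158 and 156 in the libraries labelled as lacking both.

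Glycolysis and HIF1 target genes were called positive in 7 of 28 cases and negative in none, at a median of 0.13 (0.25 over 10 libraries, with 14 positive calls and 1 negative). Pfkfb3, whose product makes the activator of phosphofructokinase, stood at 501, 417 and 430 CPM with both kinases present, 685, 655 and 673 without IKKe, 561, 600 and 681 without TBK1 and 2408, 2413 and 2938 in the libraries labelled as lacking both. The Pfkfb3 interaction was 1.50 ± 0.15 (SE, adjusted p = 0.000232, 1.31 over 10 libraries), and that of Hif1a, the oxygen-regulated transcription factor, was 0.80 ± 0.09 (SE, adjusted p = 0.000512, 0.86 over 10 libraries). Hexokinases Hk2 and Hk1 interacted by 1.04 ± 0.15 (SE, adjusted p = 0.00171, 0.85 over 10 libraries) and 0.62 ± 0.09 (SE, adjusted p = 0.00174, 0.57 over 10 libraries). Ddit4 (REDD1, of the ATF4 list), a stress-induced inhibitor of mTORC1, stood at 7.86, 7.19 and 6.49 CPM with both kinases present, 9.64, 9.17 and 10.7 without IKKe, 5.41, 6.59 and 5.07 without TBK1 and 42.3, 41.1 and 42.2 in the libraries labelled as lacking both, an interaction of 2.43 ± 0.16 (SE, adjusted p = 3.34e-05, 2.37 over 10 libraries).

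Cell death and inflammasome genes were called positive in 7 of 32 cases and negative in 2, at a median of 0.09 (0.13 over 10 libraries). The positive count was 4 without any 1 of TBK1-WT ∆IKKe replicates 1, 2 and 3, TBK1-cKD ∆control replicate 1, TBK1-WT ∆control replicate 3 and replicate 1 labelled TBK1-cKD ∆IKKe. The negative count was 0 without TBK1-WT ∆IKKe replicate 2 or 3, and 1 without TBK1-WT ∆IKKe replicate 1, TBK1-WT ∆control replicate 1 or 3, TBK1-cKD ∆control replicate 1, or replicate 1 or 3 labelled TBK1-cKD ∆IKKe. Mlkl, the executioner of necroptosis, stood at 30.8, 23.4 and 21.7 CPM with both kinases present, 21.6, 18.7 and 19.7 without IKKe, 21.8, 34.5 and 29.6 without TBK1 and 73.9, 65.7 and 78.7 in the libraries labelled as lacking both, an interaction of 1.69 ± 0.24 (SE, adjusted p = 0.00153, 1.47 over 10 libraries). The pyroptosis genes Gsdmd, Casp4 (caspase-11) and Nlrp3 interacted by 0.82 ± 0.11 (SE, adjusted p = 0.00118, 0.75 over 10 libraries), 0.85 ± 0.13 (SE, adjusted p = 0.00215, 0.78 over 10 libraries) and 0.65 ± 0.10 (SE, adjusted p = 0.00294, 0.68 over 10 libraries). Only Nlrp3 of these 4 was also called for single loss of either kinase, at 0.53 ± 0.07 (SE, adjusted p = 0.00274, 0.55 over 10 libraries) for TBK1 and 0.44 ± 0.07 (SE, adjusted p = 0.0178, 0.46 over 10 libraries) for IKKe.

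Among the genes with a negative interaction were 6 of 39 cell cycle genes and the cyclin gene Ccnd1. Ccnd1 (chr7:144929931-144939925, minus strand), the cyclin D1 that M-CSF induces, stood at 77.8, 87.6 and 90.3 CPM in TBK1-WT ∆control, 53.7, 60.6 and 63.5 in TBK1-WT ∆IKKe, 79.9, 72.4 and 74.1 in TBK1-cKD ∆control and 18, 16.1 and 16 in the labelled TBK1-cKD ∆IKKe libraries. IKKe loss alone changed Ccnd1 by -0.52 ± 0.09 (SE, adjusted p = 0.0196, -0.58 over 10 libraries) and TBK1 loss alone gave -0.17 ± 0.09 (SE, adjusted p = 0.381, -0.23 over 10 libraries). The interaction was -1.65 ± 0.13 (SE, adjusted p = 5e-05, -1.56 over 10 libraries). The labelled double libraries were lower than all other 9, and TBK1-WT ∆IKKe lay between them and the rest. Sesn1, a stress-responsive inhibitor of mTORC1, stood at 59, 57.6 and 58.2 CPM with both kinases present, 37.5, 38.1 and 37.3 without IKKe, 41.1, 57.4 and 38.6 without TBK1 and 7.75, 9.38 and 11.1 in the libraries labelled as lacking both, with an interaction of -1.64 ± 0.21 (SE, adjusted p = 0.000918, -1.78 over 10 libraries). Sesn1 and Ddit4, which act on the same kinase complex, thus had opposite signs.

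Of 39 cell cycle genes, none was called positive and 6 were called negative in both fits, 7 over 12 libraries and 11 over 10, at medians of -0.42 and -0.53. The 12-library count was 3 without TBK1-cKD ∆control replicate 1 or TBK1-WT ∆IKKe replicate 2 or 3, 4 without TBK1-WT ∆control replicate 3 or replicate 2 labelled TBK1-cKD ∆IKKe, and 11 without replicate 1 labelled TBK1-cKD ∆IKKe. Cdc20, an activator of the anaphase-promoting complex, stood at 10.1, 11.8 and 11.8 CPM with both kinases present, 8.22, 7.62 and 9.83 without IKKe, 7.11, 9.58 and 6.56 without TBK1 and 2.33, 2.34 and 1.83 in the libraries labelled as lacking both. The Cdc20 interaction was -1.44 ± 0.24 (SE, adjusted p = 0.00368, -1.25 over 10 libraries). Those of the mitotic genes Aurka and Kif20a were -1.03 ± 0.15 (SE, adjusted p = 0.00177, -0.87 over 10 libraries) and -0.72 ± 0.15 (SE, adjusted p = 0.0146, -0.82 over 10 libraries). Kif20a was also lower on TBK1 loss alone, at -0.82 ± 0.11 (SE, adjusted p = 0.00233, -0.71 over 10 libraries). Cdkn2c, an inhibitor of the cyclin D kinases, was negative too, at -1.55 ± 0.23 (SE, adjusted p = 0.00222, -1.33 over 10 libraries). In bulk RNA fewer cells of a kind and less RNA per cell cannot be told apart.

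**Figure D5:**
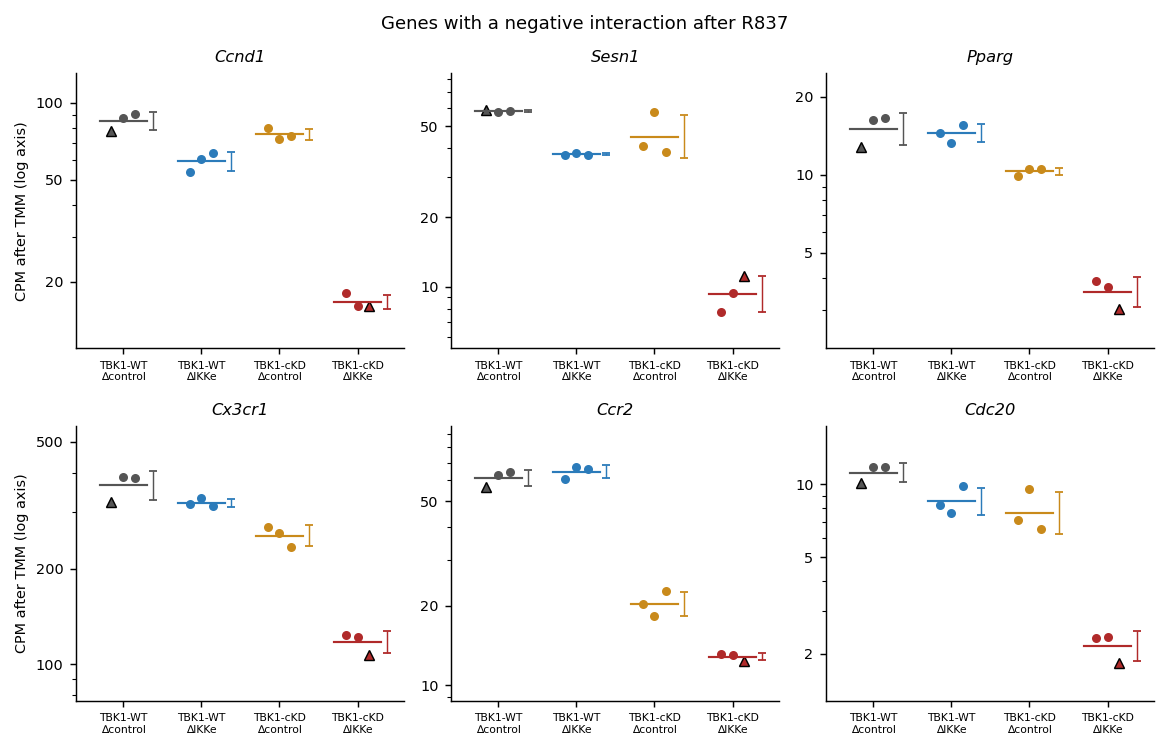
TMM-scaled CPM (log axis) of 6 genes with a negative interaction in each R837 library; lines, bars and triangles as in the plot of positive genes. The 3 points labelled TBK1-cKD ∆IKKe lie below the other 9 in each panel, from 16 to 18 CPM for Ccnd1 against 53.7 to 90.3, and Ccr2 is already low in TBK1-cKD ∆control.

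LXR targets and lipid handling genes split, with 2 of 16 called positive and 2 negative in both fits, at a median of 0.05 (0.13 over 10 libraries, with 5 positive and 3 negative calls). Positive calls numbered 0 without TBK1-WT ∆IKKe replicate 1, 2 or 3, TBK1-cKD ∆control replicate 1 or 3, or replicate 1 labelled TBK1-cKD ∆IKKe, and 1 without TBK1-WT ∆control replicate 1, 2 or 3 or replicate 2 labelled TBK1-cKD ∆IKKe. Ch25h, which makes 25-hydroxycholesterol, was positive at 1.11 ± 0.25 (SE, adjusted p = 0.021, 1.35 over 10 libraries), and Abca1, a cholesterol exporter, at 0.35 ± 0.09 (SE, adjusted p = 0.0354, 0.35 over 10 libraries). Pparg, the fatty acid-sensing nuclear receptor, stood at 12.8, 16.2 and 16.5 CPM with both kinases present, 14.5, 13.3 and 15.6 without IKKe, 9.89, 10.5 and 10.5 without TBK1 and 3.91, 3.68 and 3.04 in the libraries labelled as lacking both. The Pparg interaction was -1.48 ± 0.18 (SE, adjusted p = 0.000708, -1.26 over 10 libraries), and Lpl, the lipase that frees fatty acids from lipoproteins, had one of -0.77 ± 0.13 (SE, adjusted p = 0.00395, -0.74 over 10 libraries). Of 23 cholesterol synthesis genes, 3 were called negative and none positive, at a median of -0.34 (-0.11 over 10 libraries), among them Dhcr7, the last step of the pathway, at -1.46 ± 0.23 (SE, adjusted p = 0.00257, -1.22 over 10 libraries). Without TBK1-WT ∆IKKe replicate 1, 2 or 3 or TBK1-cKD ∆control replicate 1, 1 of them was called.

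Macrophage identity genes were called positive in 3 and negative in 2 of 29 cases, at a median of -0.16 (-0.04 over 10 libraries, with 7 positive and 5 negative calls). Cx3cr1, the fractalkine receptor, stood at 324, 389 and 386 CPM with both kinases present, 318, 333 and 315 without IKKe, 270, 259 and 233 without TBK1 and 124, 122 and 107 in the libraries labelled as lacking both. TBK1 loss alone changed Cx3cr1 by -0.53 ± 0.09 (SE, adjusted p = 0.00949, -0.60 over 10 libraries), and the interaction was -0.92 ± 0.13 (SE, adjusted p = 0.00128, -0.78 over 10 libraries). Ccr2, the receptor for Ccl2, stood at 56.5, 62.9 and 64.5 CPM with both kinases present, 60.6, 67.1 and 66.3 without IKKe, 20.4, 18.4 and 22.7 without TBK1 and 13.1, 13 and 12.4 in the libraries labelled as lacking both. TBK1 loss alone changed Ccr2 by -1.58 ± 0.09 (SE, adjusted p = 9.06e-06, -1.62 over 10 libraries), with an interaction of -0.75 ± 0.13 (SE, adjusted p = 0.004, -0.67 over 10 libraries). Fcgr1, the high-affinity IgG receptor, was positive at 0.77 ± 0.13 (SE, adjusted p = 0.00413, 0.84 over 10 libraries).

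Markers of other cells moved with the labelled double group in part. Sums of marker lists are CPM without TMM scaling. The summed level of 15 neutrophil markers was 784 to 816 CPM in TBK1-WT ∆control, 827 to 907 in TBK1-WT ∆IKKe, 1127 to 1238 in TBK1-cKD ∆control and 1553 to 1671 in the labelled double group. Mmp9, which macrophages also express, made 80.8% of that sum, and without it the ranges were 162 to 198, 196 to 211, 140 to 157 and 274 to 423; Retnlg was at 0 in all 12 libraries. S100a8, a calprotectin subunit, stood at 15.5, 17.1 and 14.6 CPM with both kinases present, 27.3, 25.8 and 23.6 without IKKe, 22.9, 36.1 and 23 without TBK1 and 107, 118 and 190 in the libraries labelled as lacking both, with an interaction of 1.65 ± 0.31 (SE, adjusted p = 0.00871, 1.38 over 10 libraries). Csf3r, the G-CSF receptor, interacted by 0.66 ± 0.13 (SE, adjusted p = 0.0105, 0.49 over 10 libraries). Of the neutrophil markers, 2 of 8 tested were called. Dendritic cell markers summed to 173 to 215, 171 to 189, 116 to 138 and 274 to 396 CPM, of which 98.3% was Bst2, also an interferon-stimulated gene. The rest lay between 2.63 and 4.36 CPM, and Cd209a was at 0. Lymphocyte markers summed to 68.7 to 76.4, 58.1 to 62.2, 72.8 to 81.4 and 51 to 53.4 CPM, with Cd3g, Nkg7 and Gzma at 0. Il7r made 73.9% of that sum, and without it the ranges were 18.1 to 24.4, 22.3 to 25.2, 10.6 to 18.5 and 9.11 to 11. Erythroid and megakaryocyte markers summed to 365 to 465, 394 to 446, 433 to 460 and 252 to 315 CPM, with Hbb-bs at 0. Tfrc made 53.5% of that sum, and without it the ranges were 152 to 220, 183 to 224, 184 to 225 and 115 to 145. Mast cell and basophil markers summed to 0.437 to 1.17 CPM over the 12 libraries. Stromal markers summed to 184 to 208, 169 to 190, 188 to 212 and 138 to 158 CPM. Fn1 made 59.2% of that sum, and without it the ranges were 72.7 to 93.2, 68.4 to 85.6, 55.4 to 67.5 and 62.4 to 80.4. The part of such cells in the gene results was not tested.

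The interaction after R837 was also compared with that in untreated cells in 1 fit of all 24 libraries. It differed for 966 of 14681 genes (6.58%), 448 more positive after R837 (3.05%) and 518 more negative (3.53%). Of the 580 positive genes, 241 were called more positive after R837 and 42 less positive, and of the 332 negative genes 212 were called more negative and none less. All untreated libraries had high Malat1 and Neat1, and Ikbke in the untreated libraries stood at 59, 59.9 and 59.6 CPM in TBK1-WT ∆control, 35.9, 34.5 and 35 in TBK1-WT ∆IKKe, 71.5, 73.8 and 76.1 in TBK1-cKD ∆control and 80.6, 76.9 and 81.3 in the labelled TBK1-cKD ∆IKKe libraries. The 3 untreated libraries labelled TBK1-cKD ∆IKKe thus had no lower Ikbke than controls, which bears on every untreated value here.

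Ccnd1 was among the genes whose interaction was further from 0 after R837, differing by -1.09 ± 0.14 (SE, adjusted p = 5.03e-05). Pfkfb3 differed by 2.07 ± 0.27 (SE, adjusted p = 4.51e-05) and Cx3cr1 by -1.68 ± 0.16 (SE, adjusted p = 1.52e-06), in the same direction as their interactions. In the glycolysis list, 9 of 28 genes were more positive after R837 and none more negative, with an untreated median interaction of -0.86. Untreated Hk2 was split between replicates, at 41.8, 90.7 and 105 CPM in TBK1-WT ∆IKKe and 43.3, 106 and 90.5 in TBK1-cKD ∆control. It stood at 40.1, 48.2 and 45.3 in TBK1-WT ∆control and 50, 51.6 and 66 in the labelled TBK1-cKD ∆IKKe libraries. Pfkfb3 was split likewise in the single-loss groups (60.2, 84.2 and 90.3, and 76.6, 112 and 105), but Hif1a was not (107, 109 and 111, and 118, 118 and 117). The part of this split in the differences was not tested.

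Antimicrobial genes went the other way, with 11 of 26 less positive after R837 and none more, and with an untreated median interaction of 2.47. Untreated Hp stood at 0.511, 0.473 and 0.33 CPM in TBK1-WT ∆control, 0.605, 0.48 and 0.314 in TBK1-WT ∆IKKe, 0.332, 0.363 and 0.148 in TBK1-cKD ∆control and 46.2, 48.1 and 46.8 in the labelled TBK1-cKD ∆IKKe libraries, and its difference was -5.33 ± 0.38 (SE, adjusted p = 1.73e-08). Untreated Nos2 stood at 0.0426, 0 and 0 CPM in TBK1-WT ∆control, 0.0224, 0.0872 and 0 in TBK1-WT ∆IKKe, 0.0443, 0.0727 and 0.0742 in TBK1-cKD ∆control and 9.57, 9.07 and 9.47 in the labelled TBK1-cKD ∆IKKe libraries, and the difference for Nos2, -4.11 ± 1.71 (SE, adjusted p = 0.162), was not called. In both, the untreated libraries labelled TBK1-cKD ∆IKKe alone rose above 1 CPM. Interferon-stimulated genes were split at 4 more and 10 less positive, with an untreated median of 1.12, and NF-kB feedback genes at 3 and 13, with one of 0.53. Inflammatory cytokines and chemokines were split at 6 more and 4 less positive, with an untreated median of 0.61. In edgeR's quasi-likelihood test Ptgs2 was less positive by -1.49 ± 0.26 (SE, adjusted p = 0.00102). Traf1, of the NF-kB list, differed by -1.33 ± 0.14 (SE, adjusted p = 5.01e-06) in that test.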

How the data were processed

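RNA of macrophages was made into TruSeq RNA v2 libraries, a kit that does not mark strand, and sequenced on a HiSeq4000 as single-end reads of 50 bp, per the labels' protocols. The submitters' processing notes name GSNAP and GRCm38, with no version. The deposited files give, per the file headers, whole-number counts over the exons of each gene and an RPKM value by the authors. The counts were used for all fits and levels. The RPKM served only to infer a total per library, from which the share outside gene counts was taken. Of 52636 identifiers per file, 233 had no symbol and held 0.0187% of the counts.

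Counts were fitted with edgeR 4.0.16 in R 4.3.3 (TMM, filterByExpr with a minimum count of 10 and total of 15, quasi-likelihood F test, 1 mean per group) on 12 R837 libraries (8 residual degrees of freedom) and on 10 (6), and adjusted by the Benjamini-Hochberg method over all genes tested, with a threshold of 0.05. The comparison with untreated cells used all 24 libraries. SE is the log2 change divided by the square root of F. Alternatives included DESeq2 1.42.0; single libraries were also left out in turn. The fit was tested on simulated data: at 4-fold, 97% of changed genes were recovered among 13483, and at 2-fold 49%. False calls numbered 14. Depth was 19727746 to 41323219 counts per library, which limits genes of a few CPM most.

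The interaction, the libraries of high Malat1 and Neat1, and the gene lists were chosen with earlier results of these data known, so no list supports its own direction. Genes named were Tbk1 and Ikbke, the 12 largest interactions of each sign among genes called in both fits with a mean of at least 1 on the log2 CPM scale, up to 4 per list by p, the nuclear RNAs and 4 macrophage markers; others are marked as chosen after seeing values. Promoters and their sequences came from RefSeq (GRCm38.p6). Some genes are not reported here.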

Additional observations from a re-analysis of the deposited data

Results flagged for a closer look

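For 14 genes called in both fits, TBK1 loss after R837 changed expression in opposite directions with and without IKKe, each direction at adjusted p under 0.05 in edgeR's quasi-likelihood test, and the interaction tests that difference. That count is of the 12-library fit. With the calls of the 10-library fit it was 39, which included 13 of the 14. It was 6 and 7 without TBK1-WT ∆IKKe replicates 1 and 2, 9 without TBK1-cKD ∆control replicate 1 and 5 without TBK1-WT ∆control replicate 3. In 11 the gene was lower on TBK1 loss with IKKe present and higher without it. Their interactions were 2.69 for Ms4a4c, 2.50 for Treml2, a myeloid receptor, 2.17 for Ifitm1, 1.75 for Runx3, a transcription factor, 1.73 and 1.68 for Ly6e-ps1 and Ly6e, which share sequence so that their counts may not be separate, 1.52 for Zfp36l1, an mRNA-decay protein, 1.40 for Siglec1, the sialic acid receptor CD169, 1.11 for Il10, 0.75 for Batf and 0.62 for Ms4a6c. For Siglec1 the changes were -0.45 ± 0.09 (SE, adjusted p = 0.0225) with IKKe and 0.95 ± 0.09 (SE, adjusted p = 2.27e-05) without, and for Runx3 -0.66 ± 0.13 (SE, adjusted p = 0.0227) and 1.08 ± 0.13 (SE, adjusted p = 8.2e-05). In the other 3 the gene was higher with IKKe present and lower without it, with interactions of -0.80 for Nrp1, -0.73 for Emp2 and -0.65 for Fn1, fibronectin. Fn1 changed by 0.31 ± 0.07 (SE, adjusted p = 0.0301) and -0.34 ± 0.07 (SE, adjusted p = 0.00336). None of the 912 genes called in both fits was called in opposite directions on IKKe loss with and without TBK1. IKKe loss with TBK1 present called few of the 13483 genes, 76 higher and 17 lower, which left little room for such a result. Values of opposite sign did occur, as for Isg20 at -0.23 (not called) with TBK1 and 2.46 without. Treml2, Ifitm1, Runx3 and Il10 were singled out after their values had been seen, as were Nrp1, Emp2, Ms4a6c, Batf, Siglec1, Ly6e and Ly6e-ps1.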

How the results depend on the processing

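The number of interaction calls grew when libraries that stand apart were removed or modelled, and fell when single libraries were. Against 982 genes (616 positive, 366 negative), there were 1659 (1039, 620) over 10 libraries, 1845 (1118, 727) with the level of Malat1 and Neat1 as a term, 3041 (1735, 1306) without 3 libraries that stand apart, 3253 (1946, 1307) over all 24 libraries and 1596 (974, 622) with the DESeq2 Wald test. In that order, TBK1 loss with IKKe called 870, 1121, 1607, 1305 and 738 genes against 350, and IKKe loss with TBK1 258, 353, 666, 272 and 247 against 93. With the term, without 3 libraries and over 24 libraries, TBK1 loss without IKKe called 4383, 5851 and 4498 genes against 2769, and IKKe loss without TBK1 4778, 5595 and 5067 against 3075; loss of both called 5544 with the term and 6224 without 3 libraries against 3286. The difference from untreated cells called 1496 genes without the 2 libraries, 2127 without 3 and 1615 with the term against 966. Leaving out 1 library at a time gave 521 to 970 interactions, 354 to 595 positive and 167 to 375 negative, 153 to 517 and 1903 to 3335 genes for TBK1 loss with and without IKKe, 14 to 115 and 2416 to 3758 for IKKe loss with and without TBK1, 2514 to 3884 for both, and 722 to 1236 for the difference from untreated. Of the 912 genes called in both fits, 711 were called with no count filter and 895 to 912 under the other 7 alternatives that did not leave out a single library. Among those 7 is the 10-library fit by which the genes were chosen, so its 912 was fixed in advance. The cause of these shifts was not tested.

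Of 2455 values of 123 named genes under alternatives, 2266 kept direction and side of the threshold, 149 of called genes missed it, 35 passed it newly and 5 reversed. Genes were named largely by their calls in both fits, and the 10-library fit is also among the alternatives. The number that kept their side is therefore in part fixed by that choice. The reversals were Cenpe, at 1.37 (adjusted p = 0.437) over 12 libraries but -1.44 over 10, -1.47 with the term and -1.47 without 3 libraries, and Cenpf, at 0.72 but -1.54 with the term and -1.46 without 3. No paired analysis was possible because the titles carry no replicate numbers that link libraries of different groups. All fits therefore took the libraries as independent, also those of treated and untreated cells. The self-test at 2-fold limits what a missing call shows: smaller interactions may go undetected at 3 libraries per group.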

Other observations

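The 2 libraries of high Malat1 and Neat1 sit in groups that enter the interaction with the same sign, so nuclear RNAs carried larger values over 12 libraries than over 10. The median interaction of 9 nuclear RNAs was 2.19 over 12 libraries and 0.11 over 10, with no call in either fit. Between the 2 fits 517 genes moved by more than 1 on the log2 scale, 515 of them to a higher value over 12 libraries, and 1 of the 517 was among the 912 genes called in both. Mki67, a proliferation gene named after its values had been seen, stood at 96.9, 9.79 and 13.4 CPM with both kinases present, 12, 8.68 and 14.6 without IKKe, 12, 14.7 and 13.8 without TBK1 and 10.3, 11.9 and 63.9 in the libraries labelled as lacking both, with an interaction of 2.87 ± 1.21 (SE, adjusted p = 0.175, -0.30 over 10 libraries). Its 2 high values were in those same 2 libraries.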
